A study of Mus musculus with 6 samples.

Results

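Pigment cell genes were followed in the retina of mouse embryos in which the dorsal T-box factor Tbx3 was deleted. The set held 10 genes chosen by name: the fate factor Mitf, the melanin enzymes Tyr, Tyrp1 and Dct, the melanosome genes Pmel, Mlana, Slc45a2 and Oca2, the channel gene Trpm1, and Rpe65. The deposited table of 26147 genes gave values for 9 of the 10, and all 9 passed the filter on low values. Rpe65, which acts in the visual cycle of mature pigment epithelium, was not analysed here beyond its promoter window.

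RNA came from retinas at embryonic day 13.5, all on the C57BL/6J background, a black strain with a working Tyr gene. The 3 wild-type libraries were from siblings without Dkk3-Cre that carried 1 floxed Tbx3 allele (Tbx3 Fl/+). The 3 Tbx3 conditional knockout (Tbx3 cKO) libraries were from embryos with Dkk3-Cre and the Tbx3 ∆Fl/∆Fl genotype. The Dkk3-Cre transgene is known for activity in retinal progenitors. Cre was present in the knockouts alone, so its own effect and that of Tbx3 loss cannot be told apart. The labels do not say whether pigment epithelium was peeled off the retinas or how many embryos and litters stand behind a library. The p-values therefore measure only the spread between these samples, which may be technical.

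The retinal pigment epithelium is a sheet of pigmented cells that lies against the back of the neural retina and arises from the same optic cup. MITF, a basic helix-loop-helix leucine zipper factor, directs cells of the cup to the pigment fate and switches on genes of melanin synthesis. Tyrosinase, made from Tyr, starts melanin synthesis, and the related enzymes made from Dct and Tyrp1 act on later intermediates inside melanosomes. The comparison asked whether Mitf and the melanin genes moved alike in each library.

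The promoters of the 3 melanin enzymes are shown first, because MITF is known to bind a sequence called the M-box in them. The stretches below, 80 bases each written 5′ to 3′ on the gene's own strand, are from RefSeq promoter windows of build GRCm38.p6, which is not the build named for the deposited values. Capitals mark the core CATGTG.

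Tyr, chr7:87493491-87493570, minus strand: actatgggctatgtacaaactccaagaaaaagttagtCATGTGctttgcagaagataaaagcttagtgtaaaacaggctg
Tyrp1, chr4:80834130-80834209, plus strand: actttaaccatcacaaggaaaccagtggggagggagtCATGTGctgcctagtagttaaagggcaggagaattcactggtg
Dct, chr14:118052354-118052433, minus strand: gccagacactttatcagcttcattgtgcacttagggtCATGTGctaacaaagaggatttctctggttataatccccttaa
Trpm1, chr7:64153657-64153736, plus strand: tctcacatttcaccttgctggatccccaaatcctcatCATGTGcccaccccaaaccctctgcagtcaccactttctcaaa

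The core began 21 bases before the RefSeq start site in Tyr, 46 in Tyrp1, 150 in Dct (which has another farther upstream) and 141 in the first of the 2 Trpm1 windows. Around it the 3 enzyme genes shared a run of 10 bases, GTCATGTGCT, and Tyr and Tyrp1 shared 11, AGTCATGTGCT. The 10-base run, on either strand, stood in 0.186% of the 32851 windows of all genes, and Trpm1 did not have it at its core. Windows from 250 bases before to 50 after a start site were at hand for 7 of the 10 genes, and 6 of the 7 held CATGTG on either strand in at least 1 window. By window, CATGTG stood in 7 of the 10 windows of these genes, that of Rpe65 among them, against 14.2% of the windows of all genes. None of the 3 Mitf windows held it. A match of letters is a description and not evidence of binding. Outside the set, 1249 tested genes had the core in a window, and their median log2 fold change was 0.02, against -0.02 over all genes tested.

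The targeted gene matched the labels. Tbx3 had normalized values (the deposited unit, taken as reads per gene scaled by 1 factor in each library) of 1998, 2558 and 2577 in the wild types, against 40.3, 47.8 and 58.9 in the knockouts. The libraries held an estimated 21482152 to 27174646 reads. Wild type 1 and Tbx3 cKO 3 stood apart from the others of their groups. The summed level of 12 genes of retinal ganglion cells was 100227 in wild type 1 against 18791 and 30817 in the other wild types. In Tbx3 cKO 3 it was 2018 against 13145 and 6978 in the other knockouts. Each pigment gene is therefore also given without both of these libraries, as the fit of 4 libraries. Wild type 1 was the lowest library for all 9 pigment genes, and Tbx3 cKO 3 the highest for 8. Leaving both out must lower the fold change of these 8, and it removes much of the spread behind the intervals. The fit of 4 libraries is thus a description and not a separate test.

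Mitf (ENSMUSG00000035158) was higher in every Tbx3 cKO library than in every wild-type library. Its normalized values were 162, 631 and 546 in wild type 1 to 3, against 1001, 986 and 6305 in Tbx3 cKO 1 to 3. The groups did not overlap, but wild type 1 lay far below its group and Tbx3 cKO 3 far above. The log2 fold change was 2.26 (SE 0.82, 95% interval 0.32 to 4.21, n = 3 each), and it did not pass after adjustment over the 18914 genes tested (limma-trend adjusted p = 0.342). The exact permutation test gave p = 0.1, the smallest that 3 libraries against 3 allow. Within the other 4 libraries the log2 fold change was 0.76 (SE 0.14, 95% interval 0.42 to 1.09, limma adjusted p = 0.163), a 1.69-fold difference in place of 4.80-fold. Fold changes were taken on the log2(value + 1) scale, which understates the change of low genes. In tissue samples, more pigment cells and more Mitf RNA per pigment cell cannot be told apart.

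**Figure D1:**
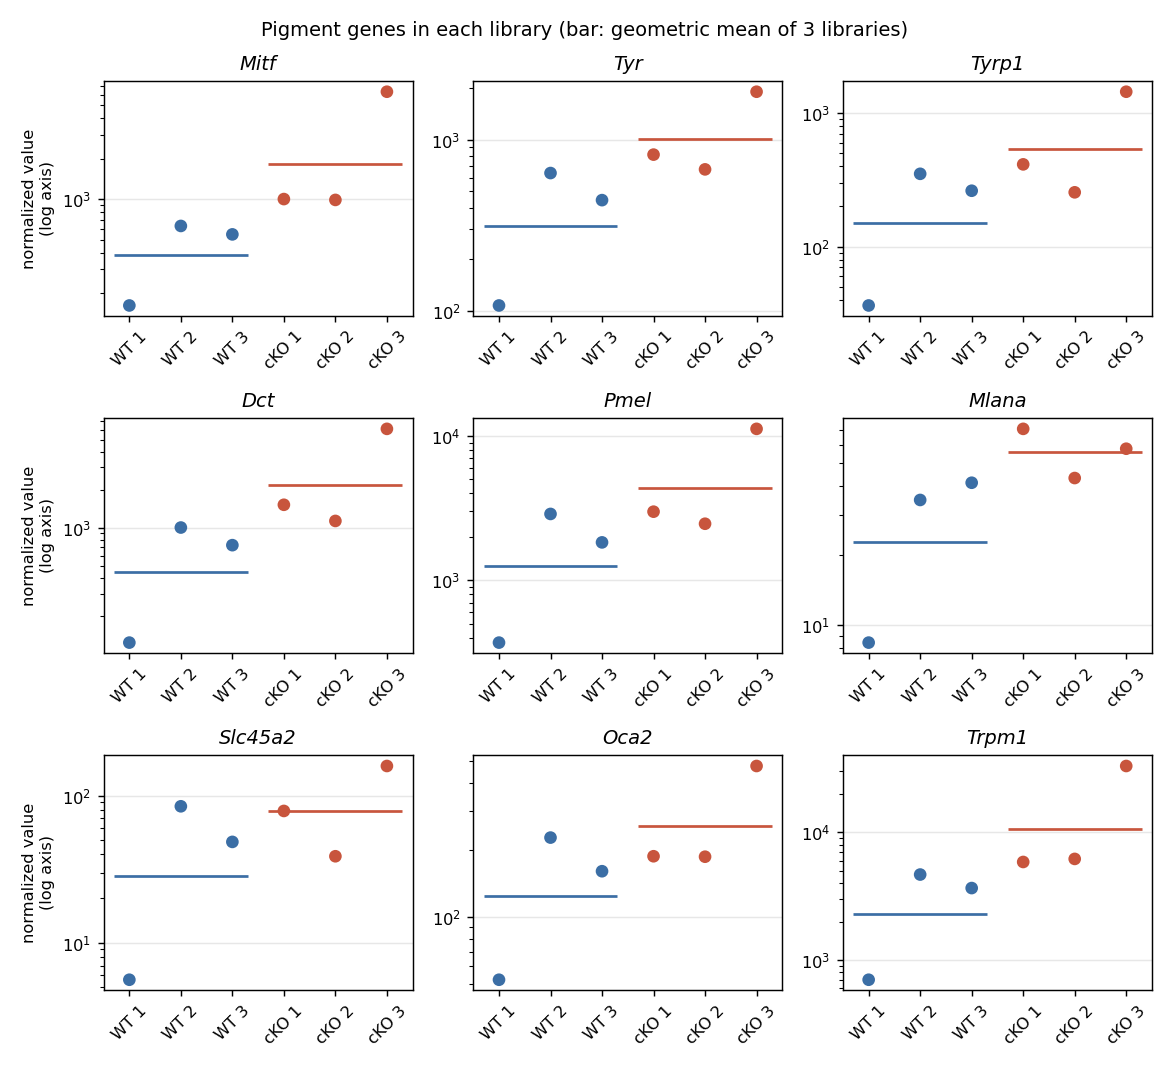
Normalized values (vertical log axes, each with its own range) of the 9 pigment genes in the 3 wild-type (WT, blue) and 3 Tbx3 cKO (cKO, red) libraries; points are libraries and bars are the geometric mean of a group. WT 1 is the lowest library in each panel, and cKO 3 the highest in each but that of Mlana, where cKO 1 is highest.

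The 3 melanin enzymes had the same extremes as Mitf. Tyr (ENSMUSG00000004651), the rate-limiting enzyme, was 107, 638 and 443 in the wild types, against 817, 670 and 1905 in the knockouts. Its groups did not overlap, though Tbx3 cKO 2 lay only just above wild type 2. The log2 fold change of Tyr was 1.70 (SE 0.69, limma adjusted p = 0.363) in all libraries and 0.48 (95% interval -0.05 to 1.0) in the 4.

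Dct (ENSMUSG00000022129), which converts dopachrome, was 122, 1002 and 726 in the wild types, against 1518, 1130 and 6079 in the knockouts. Its groups did not overlap, and Tbx3 cKO 3 was 49.7-fold above wild type 1, the widest span among the 9 genes. The log2 fold change of Dct was 2.29 (SE 0.91, limma adjusted p = 0.360), and 0.62 (95% interval 0.10 to 1.14) in the 4 libraries.

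Tyrp1 (ENSMUSG00000005994), which helps to stabilise tyrosinase and acts late in the synthesis of brown-black pigment, was 36.4, 350 and 262 in the wild types, against 412, 255 and 1438 in the knockouts. Here the groups overlapped, since Tbx3 cKO 2 lay below wild type 2 and 3. The log2 fold change of Tyrp1 was 1.82 (SE 0.96, limma adjusted p = 0.420), and only 0.10 (95% interval -0.59 to 0.79) in the 4 libraries.

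Among the melanosome genes, Pmel (ENSMUSG00000025359), whose product forms the fibrils on which melanin is laid down, was 371, 2882 and 1832 in the wild types, against 2988, 2466 and 11190 in the knockouts. The groups overlapped at wild type 2, and the log2 fold change was 1.80 (SE 0.85, limma adjusted p = 0.389), or 0.24 (95% interval -0.31 to 0.79) in the 4 libraries. Exons of Pmel overlap those of Cdk2 and Dgka on the other strand in the annotation at hand, and whether strand was used in counting is not given in the sources used here. Those neighbours had 2089 to 2447 (Cdk2) and 76.3 to 150.5 (Dgka) across the libraries, ranges far narrower than that of Pmel.

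Mlana (ENSMUSG00000024806), a melanosomal protein gene, was 8.40, 34.8 and 41.3 in the wild types, against 70.6, 43.2 and 57.9 in the knockouts. It was the exception among the 9, with its highest value in Tbx3 cKO 1 and with Tbx3 cKO 3 only 1.02-fold above the mean of the other 2 knockouts. The value in wild type 1 rests on an estimated 9 reads, with an exact Poisson 95% interval of 3.84 to 16 in normalized units, which covers counting error only. The log2 fold change of Mlana was 1.24 (SE 0.63, limma adjusted p = 0.410), and 0.53 (95% interval -0.51 to 1.57) in the 4 libraries.

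The transporter genes Slc45a2 and Oca2, both needed for the conditions inside the melanosome in which tyrosinase works, had overlapping groups. Slc45a2 (ENSMUSG00000022243) was 5.60, 84.6 and 48.4 in the wild types, against 78.6, 38.7 and 158.9 in the knockouts, with an estimated 6 reads in wild type 1 (95% interval 2.06 to 12.2 in normalized units). Oca2 (ENSMUSG00000030450) was 52.3, 227 and 161 in the wild types, against 187, 187 and 477 in the knockouts. Their log2 fold changes were 1.39 (SE 1.0) and 1.03 (SE 0.61), with limma adjusted p of 0.526 and 0.456. In the 4 libraries both turned below 0, to -0.21 (95% interval -1.41 to 0.99) and -0.03 (95% interval -0.64 to 0.58).

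Trpm1 (ENSMUSG00000030523), a cation channel gene that pigment cells express and a known target of MITF, was 700, 4663 and 3654 in the wild types, against 5848, 6180 and 32986 in the knockouts. The groups did not overlap, and the log2 fold change was 2.21 (SE 0.90, limma adjusted p = 0.360). In the 4 libraries it was 0.54 (95% interval 0.19 to 0.89, limma adjusted p = 0.372), an interval that lay above 0 like those of Mitf and Dct. An exon of Gm44722 (0 to 35.8 across the libraries) overlaps Trpm1 on the other strand.

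None of the 9 genes passed limma-trend after adjustment, where 0.0634% of all tested genes (12) did. At an unadjusted p under 0.05 stood 4 of the 9 (Mitf, Tyr, Dct and Trpm1), all higher in Tbx3 cKO, against 6.39% of tested genes higher at that level. That count was 0 of 9 without wild type 1 or without Tbx3 cKO 3, 2 without Tbx3 cKO 1 or 2, 4 without wild type 3, 6 without wild type 2, and 3 in the 4 libraries. It was 1 with library weights or robust empirical Bayes, and 4 with the other pseudocounts, filters and scalings. In 5 of the 9 (these 4 and Mlana) every Tbx3 cKO library lay above every wild-type library, against 10.6% of tested genes. The exact permutation p was 0.1 for these 5, 0.2 for Pmel, 0.3 for Tyrp1, 0.4 for Oca2 and 0.5 for Slc45a2. All 9 log2 fold changes were above 0, with a median of 1.80 against -0.02 over all tested genes, and 7 of 9 were above 0 in the 4 libraries, with a median of 0.48 against -0.01. The 9 genes varied together across libraries and are not independent of each other.

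**Figure D2:**
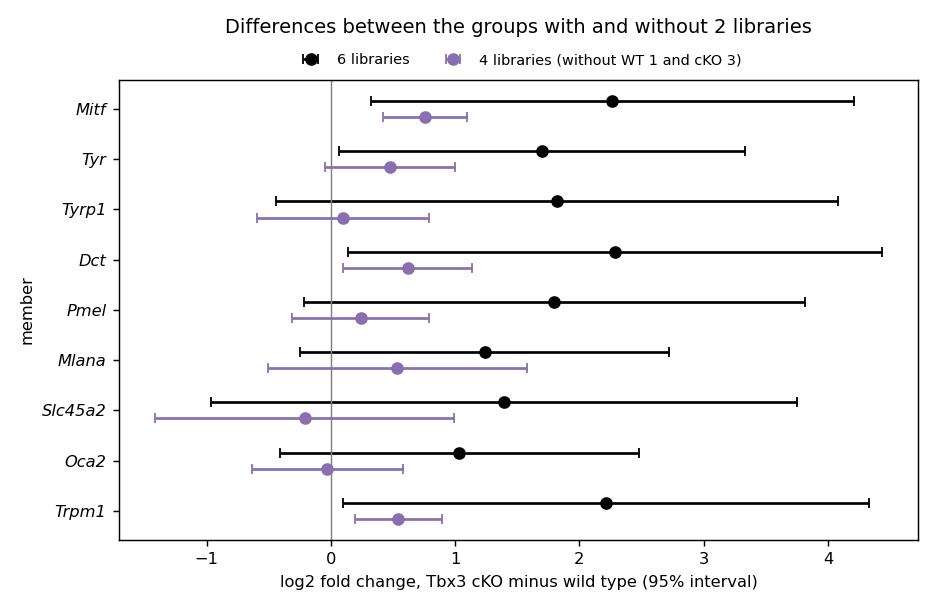
Log2 fold change (Tbx3 cKO minus wild type, horizontal axis) of the 9 genes with its 95% interval, from all 6 libraries (black) and from 4 libraries without wild type (WT) 1 and Tbx3 cKO (cKO) 3 (purple). Mitf falls from 2.26 to 0.76 and Tyrp1 from 1.82 to 0.10, and the purple intervals of Mitf, Dct and Trpm1 lie above 0.

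Wild type 1 and Tbx3 cKO 3 set most of the range of these genes. The mean of wild type 2 and 3 was 3.65-fold above wild type 1 for Mitf, 5.03-fold for Tyr, 7.06-fold for Dct, 8.41-fold for Tyrp1 and 11.9-fold for Slc45a2. Tbx3 cKO 3 was 6.35-fold above the mean of Tbx3 cKO 1 and 2 for Mitf, 5.48-fold for Trpm1, 4.59-fold for Dct and 2.56-fold for Tyr. The other 4 libraries gave a fold change (Tbx3 cKO over wild type) of 0.864 (Slc45a2) to 1.69 (Mitf). For 8 of the 9 genes wild type 1 was the lowest of the 6 libraries and Tbx3 cKO 3 the highest, an order of extremes that 11.9% of tested genes had.

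Mitf and the melanin genes moved in the same direction between these extremes, but most of them not by the same amount. Tbx3 cKO 3 was 39.0-fold above wild type 1 for Mitf, and Tyrp1 had nearly the same span (39.5-fold). Dct had a wider span (49.7-fold), and the other melanin genes narrower ones, from 6.89-fold (Mlana) to 30.2-fold (Pmel). The ratio of each gene to Mitf was taken within each library, so that a factor common to the library cancels. The mean log2 ratio of 7 melanin genes (Tyr, Tyrp1, Dct, Pmel, Mlana, Slc45a2 and Oca2) to Mitf was -1.75, -0.93 and -1.16 in wild type 1 to 3, against -1.32, -1.79 and -2.69 in Tbx3 cKO 1 to 3. It was lowest in Tbx3 cKO 3, the library with the most Mitf, and the next lowest were Tbx3 cKO 2 and wild type 1. The group means were -1.28 ± 0.43 for wild type and -1.93 ± 0.70 for the knockouts (SD, n = 3 each), so the groups overlapped and the difference of -0.65 was smaller than the SD of the knockouts.

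For single genes, 7 of 8 ratios to Mitf were lower on average in Tbx3 cKO, that of Dct being the exception with a difference of 0.02 on the log2 scale. In the 4 libraries all 8 were lower, by 0.14 (Dct) to 0.97 (Slc45a2). The 8 ratios share Mitf as their denominator and are not independent. By exact two-sided permutation tests no ratio passed, with Benjamini-Hochberg adjusted p of 0.48 to 1.0 over the 8, in a design whose smallest unadjusted p is 0.1. Oca2 alone reached that value. Its ratio to Mitf was 0.324, 0.360 and 0.294 in the wild types, against 0.187, 0.189 and 0.0756 in the knockouts, so that the groups did not overlap.

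In Tbx3 cKO 3 all 8 ratios lay below the mean of the other knockouts, by 0.21 (Trpm1) to 2.60 (Mlana) on the log2 scale. Tyr for each unit of Mitf was 0.817 and 0.679 in Tbx3 cKO 1 and 2 and 0.302 in Tbx3 cKO 3. Wild type 1, with the least Mitf, also had lower ratios than the mean of wild type 2 and 3 in 7 of the 8 genes, and lower than each of them in 6, Oca2 and Mlana being the exceptions. Tyr had 0.665 against 1.01 and 0.811. For most of the genes low ratios thus stood at both ends of the range of Mitf, and the mean ratio did not follow the Mitf level in 1 direction.

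**Figure D3:**
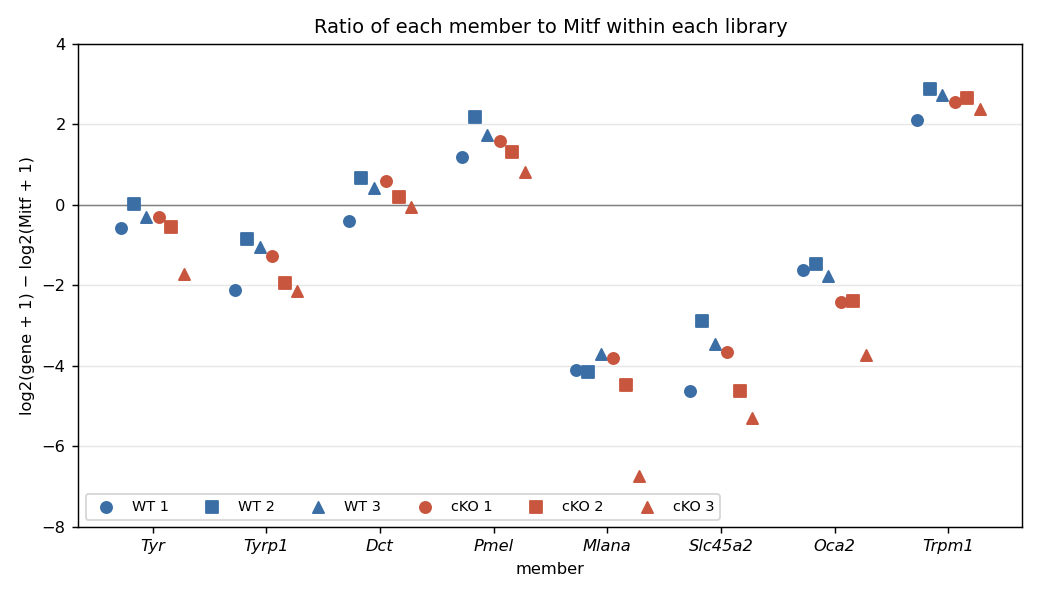
Log2 ratio of each of 8 genes to Mitf (vertical axis) within each wild-type (WT, blue) and Tbx3 cKO (cKO, red) library; symbols stand for replicates 1 to 3. The cKO 3 triangle is the lowest point for 6 of the 8 genes, and for Oca2 the 3 cKO points, at -2.41, -2.40 and -3.72, lie below the 3 WT points.

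By the size of the difference between profiles, Trpm1 was the member nearest to Mitf. The measure was the root mean square difference of log2(value + 1), centred on each gene's mean over the 6 libraries, and 18913 genes were ranked by it. Trpm1 stood 5th with 0.25, Dct 21st with 0.37, Pmel 30th with 0.43, Tyrp1 67th with 0.52 and Tyr 92nd with 0.55. Oca2, Slc45a2 and Mlana followed at ranks 355, 460 and 993. The nearest genes of all were Dact2 (0.20), a modulator of developmental signalling, Mfrp (0.23), a frizzled-related gene of the pigment epithelium, and Syt3 (0.24), a synaptotagmin, with Niban1 (0.27) next after Trpm1 among genes with a mean of at least 100. Mfrp was 75.6, 445 and 298 in the wild types, against 745, 556 and 3421 in the knockouts. It was picked for likeness to Mitf over these libraries, so its ends at wild type 1 and Tbx3 cKO 3 follow from that choice.

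Other genes of melanosomes split into those that shared this pattern and those that did not. Of 32 genes on a list of melanosome biogenesis and transport, 0 passed limma after adjustment, 7 were higher and 2 lower at an unadjusted p under 0.05, and the median log2 fold change was 0.17. Over all tested genes 6.39% were higher and 7.16% lower at that level, with a median of -0.02, and the counts of the lists that follow are to be read against the same shares. In 9 of the 32 every Tbx3 cKO library lay above every wild-type library, against 10.6% of tested genes. The extremes of Mitf, lowest in wild type 1 and highest in Tbx3 cKO 3, were found in 13 of the 32, against 11.9% of tested genes. The cystine transporter gene Slc7a11, which supplies the sulphur of red-yellow pigment, was 136, 459 and 502 in the wild types, against 1101, 767 and 3730 in the knockouts (log2 fold change 2.21, SE 0.70, limma adjusted p = 0.328). Rab32, a small GTPase that carries enzymes to the melanosome, was 31.8, 47.9 and 69.1 against 150, 95.6 and 296, and the melanosomal exchanger gene Slc24a5 was 52.5, 127 and 93.1 against 207, 144 and 222. Both sets of values were free of overlap, with limma adjusted p of 0.318 and 0.331. Hps1, part of a complex used for lysosome-related organelles in many cells, was 409, 435 and 424 against 648, 480 and 588 (log2 fold change 0.43, SE 0.15, limma adjusted p = 0.342). Myo5a, the motor that carries melanosomes and is also active in neurons, was lower in each knockout, at 5730, 4609 and 4736 against 4242, 3805 and 4288 (limma adjusted p = 0.362). It is named here after its values were seen.

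Genes of pigment epithelium identity and the visual cycle were measured at 18 of 20 listed, and 17 were tested. None passed limma after adjustment, 3 were higher and 0 lower at an unadjusted p under 0.05, and the median log2 fold change was 0.54 (0.34 in the 4 libraries). Stra6, the receptor that brings retinol into the pigment epithelium, was 795, 2253 and 2021 in the wild types, against 4778, 4111 and 7080 in the knockouts. All 3 knockouts were far above the wild types, and the log2 fold change of Stra6 was 1.75 (SE 0.41, limma adjusted p = 0.281) and 1.05 in the 4 libraries (limma adjusted p = 0.0537). Kcnj13, a potassium channel gene of the pigment epithelium, was 10.9, 40.0 and 35.7 against 103.7, 90.3 and 116.8. Its 3 knockout values lay close together, unlike those of Mitf. The retinoid genes Rdh10 (1365, 1673 and 1850 against 3012, 2096 and 3228) and Rlbp1 (110, 170 and 152 against 225, 184 and 559) had no overlap either, with limma adjusted p of 0.293 and 0.369.

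Among 15 other regulators of the pigment fate, 0 passed limma after adjustment and 6 were higher at an unadjusted p under 0.05, with none lower. The median log2 fold change was 0.17. Tfec, a close relative of Mitf, was 6.54, 32.9 and 31.4 in the wild types, against 71.6, 79.7 and 609 in the knockouts, the same order of extremes as Mitf (log2 fold change 2.92, SE 0.97, limma adjusted p = 0.331). Tfeb, of the same family, was 57.0, 89.3 and 101 against 164, 185.5 and 256. The nuclear receptor gene Nr2f1 was 4181, 5207 and 6193 against 12730, 9328 and 11482 (log2 fold change 1.11, SE 0.18, limma adjusted p = 0.166), with the highest knockout value in Tbx3 cKO 1. Wwtr1, which encodes the YAP partner TAZ, was 959, 1102 and 1138 against 1551, 1506 and 2089. Nr2f2, of the same list and named after its values were seen, was 1434, 2250 and 2006.5 against 743.8, 687.2 and 2632. Its groups overlapped (log2 fold change -0.755, SE 0.503, limma adjusted p = 0.498). In the 4 libraries it was lower in Tbx3 cKO, at -1.57 (limma adjusted p = 0.0166).

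Otx1, Otx2 and Pax6 are named after their values were seen, for their known roles beside Mitf. Otx1 was 522, 2199 and 1729 in the wild types, against 3050, 2141 and 6859 in the knockouts, and its groups overlapped. Otx2, which acts with MITF on melanin genes and is also made in photoreceptor precursors, was 2923, 1313 and 1574 against 1165, 1349 and 3542, high in both wild type 1 and Tbx3 cKO 3. Pax6, an eye field factor of both layers, ranged only from 17968 to 18941 across the 6 libraries.

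Of 10 genes of the neural layer, 0 passed limma after adjustment, and 1 was higher at an unadjusted p under 0.05 and 0 lower. In 8 the lowest value was in Tbx3 cKO 3, a count with no share taken over all tested genes. Fgf15, a growth factor gene of the neural retina, was 36323, 13792 and 16592 against 13883, 7250 and 631, and Ccnd1, which drives progenitor division, was 80640, 28965 and 35783 against 28530, 23905 and 5224. Both ran opposite to Mitf at the extremes, highest in wild type 1 and lowest in Tbx3 cKO 3. Six3 was 9834, 6320 and 7154 against 6696, 5370 and 3112. Lhx2, needed to form the optic cup, went the other way, at 4541, 4322 and 4903 against 9661, 8276 and 7402 (log2 fold change 0.87, SE 0.12, limma adjusted p = 0.104).

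**Figure D4:**
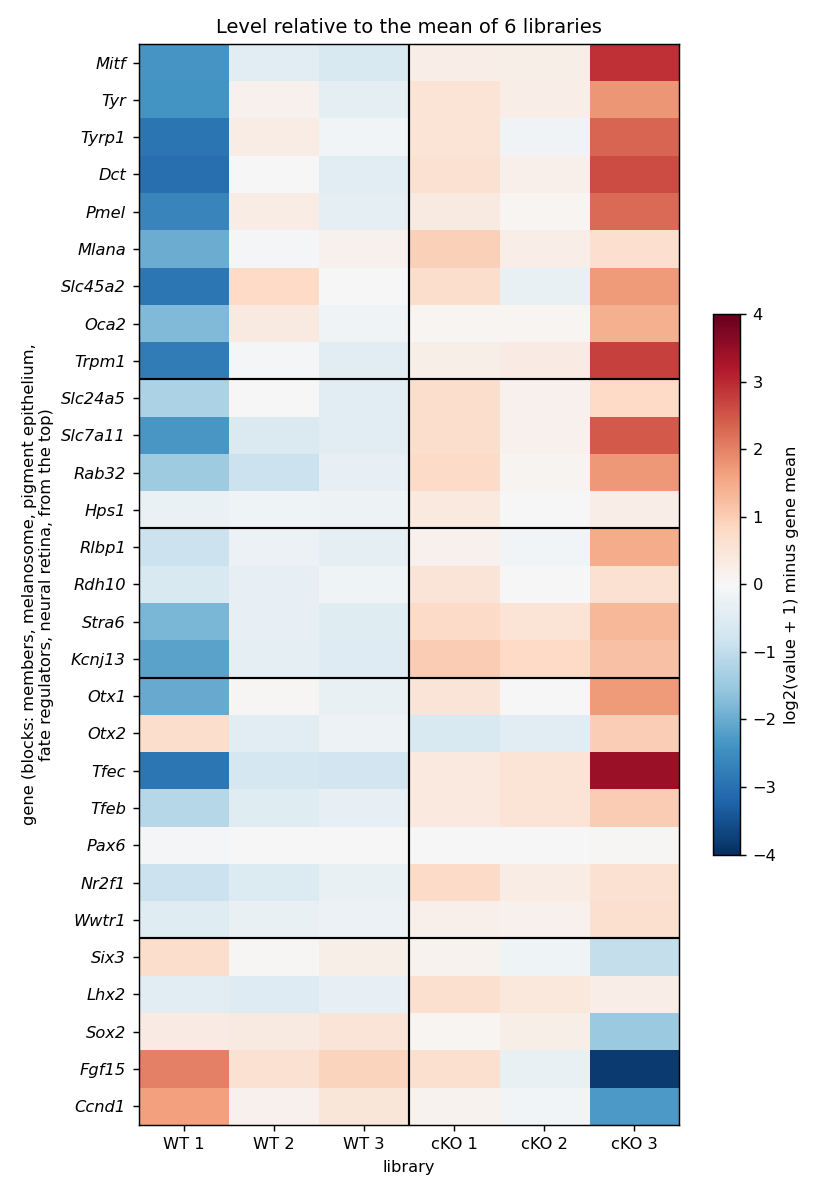
Level of the pigment genes and of genes from 4 related lists (rows) in each wild-type (WT) and Tbx3 cKO (cKO) library (columns), as log2(value + 1) minus the gene's mean over the 6 libraries; red is above and blue below that mean. WT 1 is deep blue and cKO 3 deep red over Mitf, Dct and Trpm1, while Fgf15 and Ccnd1 in the lowest block run the other way.

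Markers of other cells that retinal tissue can hold were read in the same libraries. Neural crest melanocytes also express Mitf and the melanin genes. Their list of 10 markers, with 8 tested, summed to 1514 to 2228 in the wild types, against 1544 to 1816 in Tbx3 cKO, with Pax3 at 0 in Tbx3 cKO 2, which allows up to 3.41 there at 3 reads. By limma at an unadjusted p under 0.05, 2 were higher and 1 lower. Sox10, their defining factor, was 6.54, 17.9 and 17.0 against 103.8, 14.8 and 108.4, high in Tbx3 cKO 1 and 3. Kit was 1197, 606 and 704 against 570, 511 and 291, Mef2c 55.1, 146 and 135 against 291, 223 and 623, both without overlap, and Tfap2a 243, 159 and 61.0 against 57.5, 87.6 and 91.6. Ednrb (190 to 919), Erbb3 (19.3 to 155.8) and Mc1r (4.03 to 35.8) had overlapping groups. Among the 8 tested, Kit or Ednrb had the largest value in every library but Tbx3 cKO 3. The sum of the list thus does not follow Sox10 and is no measure of melanocyte number.

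Lists of tissue around the retina shared the low end of the pattern. None of the 13 markers of periocular mesenchyme reached an unadjusted p under 0.05, but all were lowest in wild type 1. The share of all tested genes lowest in that library was not taken. In 10 of the 13 the highest value was in Tbx3 cKO 3, and 11.9% of tested genes had both extremes. The list summed to 1478, 10550 and 4596 in the wild types, against 8821, 4711 and 20336 in the knockouts. Lum was 14.9, 594 and 187 against 516, 429 and 1589, and Foxc2 2.81, 112 and 20.6 against 91.7, 55.8 and 354. The 12 ciliary margin genes belong to the rim between pigment and neural layers. They summed to 16518 to 35145 in the wild types, against 38452 to 71319 in Tbx3 cKO. Gja1 alone held 27242 of the sum in Tbx3 cKO 3. By limma 3 of the 12 were higher and 0 lower at an unadjusted p under 0.05. Every knockout lay above every wild type in 4, against 10.6% of tested genes. The reverse held for 1, Cdo1 (687, 197 and 183 against 144, 123 and 157). Gja1 and Cdo1 are named after their values were seen. In 6 of the 12 the extremes were those of Mitf, against 11.9% of tested genes. Of these, Bmp7 was 337, 760 and 650 against 2017, 1899 and 4396, and Fzd1 595, 1515 and 1319 against 3210, 3254 and 6756. Neither passed limma in all 6 libraries (adjusted p = 0.195 and 0.252). In the 4 libraries, a description and not a separate test, the limma adjusted p was 0.0207 and 0.0266. Over all tested genes 43 were under 0.05 in that fit, genes of other lists among them.

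No list here had a gene past the adjusted threshold in all 6 libraries. Of 12 macrophage markers 11 were higher by limma at an unadjusted p under 0.05. They summed to 860 to 1648 in the wild types, against 3217 to 6721 in Tbx3 cKO, with C1qa at 67.2, 90.2 and 102 against 292, 273 and 555 and C1qc at 78.4, 129 and 126 against 329, 366 and 763. The same held for 11 of 13 red blood cell genes, which summed to 64305 to 97572 against 195753 to 636377, with Hba-a1 at 11759 to 21566 against 41066 to 116439 and its close copy Hba-a2, whose reads cannot be surely separated, at 11041 to 24411 against 46868 to 101269. The exceptions, named after their values were seen, differed from each other in wild type 1. Hbb-bh1 was 85.0, 2442 and 1410 against 549, 8040 and 25119. Hbb-bs was 24902, 2946 and 2817 against 36320, 10465 and 15760. The sum of the globins thus does not show how single globin genes differed. Of 13 endothelial genes 5 were higher and 0 lower by limma at an unadjusted p under 0.05. In 12 of the 13 the log2 fold change was above 0, with a median of 1.36 over the list (0.43 in the 4 libraries). Wild type 1 was lowest for 11, a count with no share taken over all tested genes. The same extremes as Mitf were found in 8, against 11.9% of tested genes. The exception was Kdr, named after its values were seen, at 4232, 2427 and 3066 against 2978, 2301 and 902. It had the largest value of the list in every library but Tbx3 cKO 3, so the sum of the list, 4642 to 4748 against 3973 to 6407, does not follow its other genes. Their levels included Esam at 31.8, 53.6 and 61.9 against 201, 54.6 and 235 and Sox17 at 7.47, 20.7 and 25.1 against 57.5, 30.7 and 68.4. In the ganglion cell list 9 of 12 genes were lower at an unadjusted p under 0.05 by limma, against 7.16% of all tested genes, and Pou4f1 was 1362, 275 and 434 against 75.6, 104.7 and 17.9 and Nefm 22016, 4511 and 7861 against 2005, 1175 and 121. The 10 lens genes took another order: they summed to 155130, 56642 and 109381 in wild type 2, wild type 3 and Tbx3 cKO 2 and to 605 to 951 in the other 3 libraries, with Crygd at 5.43 to 2425 and Bfsp1 at 23.2 to 385. The libraries of lowest and highest Mitf were thus both among those with little lens RNA. The part of any of these tissues in the pigment result was not tested.

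**Figure D5:**
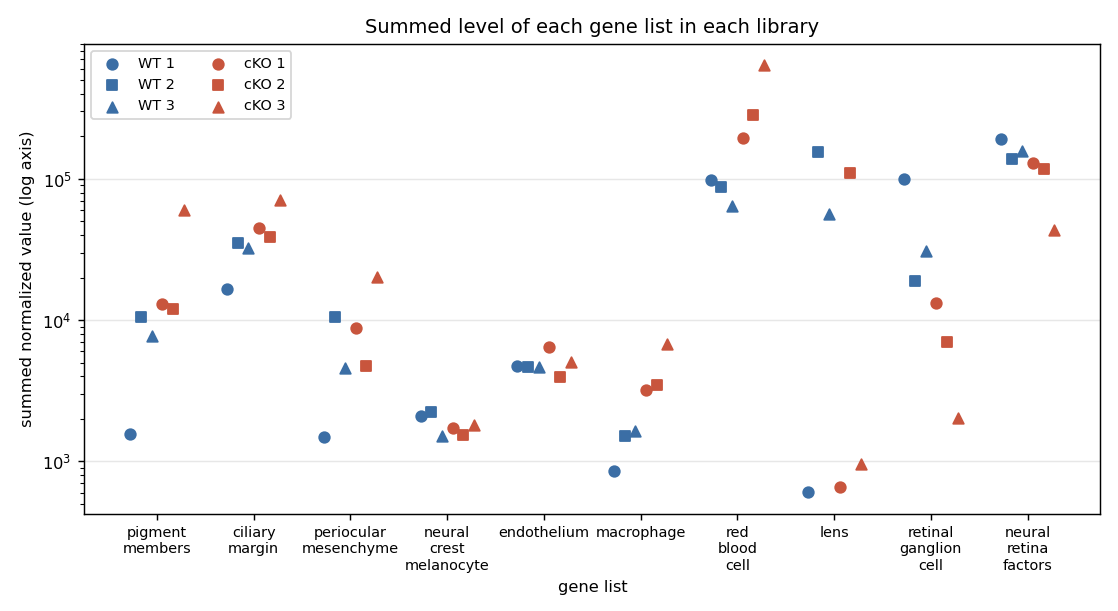
Summed normalized value (vertical log axis) of each gene list in each wild-type (WT, blue) and Tbx3 cKO (cKO, red) library; symbols stand for replicates 1 to 3. Pigment members sum to 1565 in WT 1 and 60596 in cKO 3, mesenchyme shows the same ends, and ganglion cell genes the reverse.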

How the data were processed

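Polyadenylated RNA from 6 retina libraries was made into strand-specific libraries, per the labels' protocols. The build is GRCm39 (mm39) and the tools are Partek, STAR 2.7.8a and cutadapt 4.2, per the submitters' processing notes. What each did, what counted the reads and whether strand was used is not given in the sources used here. Values deposited by the authors are a signal, read here as gene-level reads scaled by a single factor in each library. Median-of-ratios factors computed from them were 1.009 in every library. The smallest of the 3 most frequent values between 0.3 and 2 was taken as 1 read (0.897 to 1.138).

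Genes with at least 10 in at least 3 libraries were compared as log2(value + 1) by two-sided limma-trend tests (limma 3.58.1, R 4.3.3). Adjustment was by Benjamini-Hochberg over all tested genes, with a threshold of 0.05. The procedure was tested on simulated data. No covariate or block was used.

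The pigment genes, the other lists and the fit of 4 libraries were chosen with earlier results of these data known. Named were the members, the 4 genes of smallest p per pathway list, 2 per other list (melanocytes: all tested), and the 5 genes nearest to Mitf with a mean of at least 100. Some genes of these lists are not reported here by name.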

Additional observations from a re-analysis of the deposited data

How the results depend on the processing

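No pigment gene passed the threshold under any of the 17 alternatives. All kept a log2 fold change above 0 except Slc45a2 (-0.21) and Oca2 (-0.031) in the 4 libraries without wild type 1 and Tbx3 cKO 3, where fewer samples were fitted. Mlana had no value with at least 50 required in 3 libraries. The log2 fold change of Mitf ranged from 0.76 (4 libraries) to 2.71 (without Tbx3 cKO 2), with adjusted p of 0.163 to 0.679 by limma. It was 1.65 without wild type 1 and 1.38 without Tbx3 cKO 3. The mean log2 ratio of melanin genes to Mitf stayed below 0 in its 12 alternatives, and settings of the fit alone do not touch it. Over all genes 12 were called. The count was 1 to 10 when 1 library was left out (10 without Tbx3 cKO 3, 1 without any other), 43 in the 4 libraries, and 55 with library weights, where Mitf had 1.49. With the replicate number as a replicate block, the fit called 13 genes and shared 10 with the original 12, and Mitf had an SE of 0.52 (limma adjusted p = 0.175). Of the 9 pigment genes, 6 had an unadjusted p under 0.05 with this block. Same-numbered libraries had correlated deviations of 0.33, 0.018 and 0.0424, so the numbers were not taken to pair them. Median-of-ratios scaling also called 12. Depth limits Slc45a2 and Mlana in wild type 1.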
